A study of Rattus norvegicus with 24 samples.

Results

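The genes of DNA crosslink, strand break and excision repair were followed in the liver and spleen of rats given cyclophosphamide. The set was a list of 57 symbols that covers Fanconi anaemia proteins, recombination, end joining, nucleotide and base excision, mismatch repair, checkpoint kinases and translesion synthesis. Members were found through the gene symbols of the array's probe sets, and 51 of the 57 had a probe set, among 14201 genes with one. Fancg, Fancm, Fanci, Rad51d, Eme1 and Atm were not matched to a probe set and are not analysed here. For a gene with several probe sets, as 13 members have, the one with the highest mean over all 24 arrays was used.

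Male wild-type Sprague-Dawley rats of 46 to 49 days received vehicle or cyclophosphamide by mouth at 40 mg/kg/day for 5 days, and in each arm 3 rats had wood sticks to chew and 3 had none. The 4 groups were thus vehicle without wood, vehicle with wood, cyclophosphamide without wood and cyclophosphamide with wood, with 3 rats each. Liver and spleen of each of the 12 rats were measured on separate Affymetrix rat expression arrays, 24 in all, from whole-organ RNA. The series asks how access to wood bears on expression under the drug, and its groups also give the effect of the drug in each organ.

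Cyclophosphamide is a prodrug that liver enzymes activate to a mustard, which alkylates guanines and links the strands of DNA. Fanconi anaemia proteins recognise such interstrand crosslinks and load nucleases that unhook them, translesion polymerases copy past the remnant, and homologous recombination rebuilds the broken duplex. Excision repair and direct reversal remove lesions confined to one strand. Many genes of recombination and crosslink repair are transcribed mainly in dividing cells, of which the spleen of a young rat holds many among its lymphocytes and red cell precursors.

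All levels below are log2 intensities, changes are log2 differences of treated minus vehicle rats averaged over both housings unless stated, the error after ± is the SE of the moderated limma fit (SD of 3 arrays where so named), and a change was called at a Benjamini-Hochberg adjusted p under 0.05 over all genes tested. Median intensities were 89.7 to 101 on the liver arrays and 113 to 121 on the spleen arrays. Blank cells numbered 4924 to 6060 per liver array, and the liver array of treated rat 2003, without wood, had the most, and correlated least with its tissue (mean of 0.847, where each other liver array had 0.906 or more). In spleen the 3 vehicle rats without wood (1001, 1003 and 1005) and treated rat 2005 had 1778 to 1920 blanks and the other 8 arrays 1021 to 1183, so that the 6 spleens with wood lie within one class of arrays while the wood comparison and the comparison without wood are partly tied to this division. The spleen array of rat 2003 also had a summed intensity of 13664 over exocrine pancreas markers, against at most 925 in vehicle rats. All 5 hepatocyte markers tested were higher in liver than in spleen.

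In the spleen 29 of the 51 repair genes fell under cyclophosphamide (56.9%), 3 rose and 19 were not called. Over all 13614 genes tested, 28.1% fell, 26.9% rose and 55% were called in either direction. The median change of the members was -0.31, against -0.02 over all genes. All 29 called falls had the same sign with and without wood, but they were called on the mean of both housings, which favours such agreement. Among the 50 members with a value on all 12 arrays, the 6 treated spleens lay below the 6 vehicle spleens without overlap in 11, where 15.1% of all such genes did, and none lay wholly above, where 16.1% did. By limma, 27 of the 32 calls held in every refit that left out 1 rat.

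Blm, the helicase that dissolves recombination intermediates and is lost in Bloom syndrome, and Polh, the translesion polymerase that copies across bulky lesions, had the largest falls among members measured on every spleen array. Levels of Blm were in vehicle rats 8.59, 9.17 and 8.93 without wood and 8.56, 8.69 and 8.9 with wood, and in treated rats 7.36, 7.13 and 7.63 without and 7.25, 7.8 and 7.37 with wood. All 6 treated spleens were lower than all 6 vehicle spleens, with no overlap, and the fall was 1.38 ± 0.14 (adjusted p = 2.28e-05), 2.60-fold. Polh levels were in vehicle rats 5.06, 5.82 and 6.27 without wood and 5.34, 5.64 and 5.2 with wood, and in treated rats 4.05, 4.77 and 4.66 without and 3.9, 4.53 and 3.63 with wood. The groups again did not overlap, with a fall of 1.30 ± 0.23 (adjusted p = 0.00103). Rev1, the other translesion polymerase listed, fell by 0.44 ± 0.14 (adjusted p = 0.0197).

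Of the 8 recombination genes 7 fell, where 28.1% of all genes did. Rad52, which anneals single strands, was measured in vehicle rats 7.47, 7.57 and 7.15 without wood and 7.76, 7.77 and 7.87 with wood, and in treated rats 6.64, 6.69 and 6.82 without and 7.02, 6.56 and 6.1 with wood. Treated spleens were lower without overlap, by 0.96 ± 0.14 (adjusted p = 0.00028). Rad54l, a motor protein of strand invasion, had levels in vehicle rats 7.0, 7.31 and 7.32 without wood and 6.7, 6.74 and 6.68 with wood, and in treated rats 6.18, 6.45 and 6.13 without and 6.1, 6.77 and 5.61 with wood. Its groups overlapped through treated rat 4003, the highest treated spleen, and the fall was 0.75 ± 0.17 (adjusted p = 0.00394). For Brca2, a tumour suppressor of recombination, levels were in vehicle rats 6.67, 6.38 and 6.56 without wood and 5.73, 6.17 and 6.06 with wood, and in treated rats 5.22, 5.79 and 5.05 without and 6.31, 5.71 and 5.09 with wood. Without wood treated and vehicle rats were separate, with wood they overlapped, and the mean fall was 0.73 ± 0.21 (adjusted p = 0.0121). Palb2, the partner that recruits BRCA2, fell by 0.60 ± 0.08, Rad51c by 0.64 ± 0.19 and Xrcc2 by 0.39 ± 0.08. Xrcc3 fell by 0.66 ± 0.25 (adjusted p = 0.046), a call that held in 2 of 12 refits without 1 rat. It was lost without rat 1001, 1003, 1005, 2001, 2003, 3001, 3003, 4001, 4003 or 4005, with adjusted p up to 0.102.

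Brca1, the ubiquitin ligase that promotes resection of breaks, was the recombination gene not called. Its spleen levels were in vehicle rats 5.63, 5.85 and 6.27 without wood and 5.23, 5.09 and 5.25 with wood, and in treated rats 5.24, 5.28 and 5.91 without and 5.03, 5.7 and 5.04 with wood. Treated and vehicle rats overlapped in both housings, and the change was -0.19 ± 0.17 (adjusted p = 0.377). Both measured members of the MRN complex, which senses and trims broken ends, were also not called, Rad50 at -0.16 ± 0.13 and Nbn at -0.04 ± 0.10.

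Both members of the step at which the Fanconi pathway is switched on fell. Fancd2, the protein that is ubiquitinated at a crosslink, had levels in vehicle rats 7.53, 7.98 and 7.93 without wood and 7.33, 7.38 and 7.84 with wood, and in treated rats 6.99, 7.33 and 6.8 without and 6.69, 7.4 and 6.87 with wood. The treated spleens were lower apart from a small overlap between 7.33 and 7.40, and the fall was 0.65 ± 0.16 (adjusted p = 0.00605), 1.57-fold. Usp1, the enzyme that removes this ubiquitin, fell by 0.24 ± 0.07 (adjusted p = 0.0158). Of the 4 core complex genes measured, Fancl, its ubiquitin ligase, fell by 0.41 ± 0.07 without overlap of the groups, and Fanca, Fancc and Fance were not called.

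Excision genes went both ways, as all genes did in spleen. In nucleotide excision, 4 of 10 fell, 2 rose and 4 were not called, where 28.1% of all genes fell and 26.9% rose. Ercc4, the XPF subunit of the nuclease that cuts on one side of a bulky lesion and also unhooks crosslinks, fell by 0.55 ± 0.06 (adjusted p = 2.94e-05), without overlap. Its partner Ercc1 was measured in vehicle rats 7.76, 7.71 and 7.79 without wood and 8.11, 8.3 and 8.27 with wood, and in treated rats 7.94, 8.12 and 7.81 without and 7.88, 8.02 and 8.1 with wood. Treated rats were all above vehicle rats without wood and all below them with wood, and the mean change was -0.01 ± 0.07 (adjusted p = 0.911). Xpa, which verifies the lesion, fell by 0.36 ± 0.06, Ddb1, the adaptor of the damage-binding ligase, by 0.32 ± 0.06 and Ercc5, the other nuclease, by 0.24 ± 0.08. The call of Ercc5 was lost without rat 2001, 3001 or 4003, with adjusted p up to 0.0566.

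The rises in this pathway were small. Ercc3, a helicase of transcription factor TFIIH, had levels in vehicle rats 9.94, 10.01 and 9.89 without wood and 9.68, 9.72 and 9.77 with wood, and in treated rats 10.03, 10.06 and 10.20 without and 9.87, 9.93 and 9.92 with wood. Within each housing the treated rats were all higher, and the rise was 0.17 ± 0.05 (adjusted p = 0.0216). Ercc6, the coupling factor for repair of transcribed strands, was measured in vehicle rats 8.4, 8.27 and 8.52 without wood and 8.26, 7.99 and 8.16 with wood, and in treated rats 8.67, 8.49 and 8.68 without and 8.48, 8.3 and 8.37 with wood. The groups overlapped without wood and were apart with wood, and the rise was 0.23 ± 0.07 (adjusted p = 0.0228). The call of Ercc3 was lost without rat 1005 or 3001 (adjusted p up to 0.0519) and that of Ercc6 without rat 1003, 2001, 3003 or 4001 (adjusted p up to 0.0549). Xpc, which opens repair by finding the distorted helix, had levels in vehicle rats 9.14, 9.02 and 9.1 without wood and 8.92, 9.47 and 9.42 with wood, and in treated rats 9.03, 8.64 and 8.8 without and 9.14, 9.04 and 8.86 with wood. The groups overlapped, and the change was -0.26 ± 0.11 (adjusted p = 0.0699).

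In base excision and direct reversal 4 of 9 fell and 1 rose, where 28.1% of all genes fell and 26.9% rose. Apex1, the endonuclease that cuts at abasic sites, was measured in vehicle rats 10.23, 10.43 and 10.25 without wood and 10.30, 10.50 and 10.23 with wood, and in treated rats 9.69, 9.66 and 9.66 without and 9.64, 9.78 and 9.8 with wood. The treated spleens formed a narrow range below every vehicle spleen, and the fall was 0.61 ± 0.07 (adjusted p = 3.69e-05). Mpg, the glycosylase that removes alkylated purines, fell by 0.55 ± 0.16, Lig3, a ligase, by 0.24 ± 0.07 and Parp1, the sensor of single-strand breaks, by 0.23 ± 0.07. The call of Parp1 was lost without rat 3003 (adjusted p = 0.0504). Mgmt, which takes alkyl groups off guanine in a single step, was the member that rose, with levels in vehicle rats 8.63, 8.7 and 8.47 without wood and 8.76, 8.61 and 8.74 with wood, and in treated rats 8.75, 8.76 and 8.61 without and 8.95, 9.5 and 9.36 with wood. The 3 treated rats with wood were above all other spleens, those without wood overlapped the vehicle rats, and the mean rise was 0.34 ± 0.10 (adjusted p = 0.0132).

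All 3 mismatch repair genes fell, where 28.1% of all genes did. Msh3, which recognises small insertion loops, had levels in vehicle rats 7.0, 7.03 and 6.96 without wood and 7.05, 6.78 and 6.44 with wood, and in treated rats 6.21, 6.13 and 6.74 without and 5.51, 5.93 and 5.71 with wood. Treated rat 2005, at 6.74, lay among the vehicle rats and the other treated spleens lay below them all, and the fall was 0.84 ± 0.14 (adjusted p = 0.000491), 1.79-fold. Pms2, a nuclease subunit, fell by 0.46 ± 0.06 and Msh6, which recognises mismatched bases, by 0.39 ± 0.09. Of the 3 checkpoint kinases Atr, which answers stalled forks, fell by 0.65 ± 0.11 (adjusted p = 0.000664) and Chek2, a kinase downstream of breaks, by 0.67 ± 0.14 (adjusted p = 0.00284). Chek1, the kinase activated by ATR, was measured in vehicle rats 7.68, 7.67 and 7.55 without wood and 7.18, 7.38 and 7.04 with wood, and in treated rats 7.25, 7.24 and 7.51 without and 7.11, 7.54 and 6.82 with wood. Its treated and vehicle rats overlapped with wood and were apart without, and the change was -0.17 ± 0.12 (adjusted p = 0.253).

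In end joining, which seals breaks without a template, 2 of 4 fell, where 28.1% of all genes did. Xrcc6, the smaller Ku subunit, fell by 0.50 ± 0.11 without overlap, and Lig4, the ligase of this pathway, by 0.31 ± 0.08. Xrcc5, the larger Ku subunit, had levels in vehicle rats 7.27, 8.02 and 7.48 without wood and 7.06, 7.52 and 6.96 with wood, and in treated rats 7.26, 7.33 and 7.61 without and 6.88, 7.03 and 6.8 with wood. The groups overlapped, and the change was -0.23 ± 0.14 (adjusted p = 0.202). Exo1, an exonuclease of resection and mismatch repair, fell by 0.60 ± 0.14, and the helicase Wrn was not called at 0.14 ± 0.09. Among the 19 uncalled members of the spleen, the 95% interval of the change lay within 0.5 log2 units of 0 in 12 and within 1 in 17.

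Some spleen calls were lost with another choice of probe set or with a term for the arrays' blanks. That term was set by treated rat 2005 against treated rats 2001 and 2003 alone. The change without wood then compared rat 2005 alone with the vehicle rats, so lost precision and an effect of the blanks cannot be told apart. With the division of arrays by blanks as a term, the calls of Usp1, Rad51c, Xrcc3, Ercc5, Mgmt, Mpg, Lig3, Parp1 and Rev1 were lost. With all probe sets of a gene averaged, those of Usp1, Xrcc3, Lig4, Ercc4, Lig3 and Rev1 were lost. Xrcc3 has 1 probe set, so its own values were the same and only the fit over the other genes changed. Median centring ended the calls of Usp1, Xrcc3 and Parp1. Blm, Polh, Rad52, Apex1, Msh3, Palb2, Brca2, Rad54l, Fancd2 and Atr were among the 19 members called in every refit without 1 rat and under every alternative in which they were tested. When only genes at or above the median level were kept, 7 of these 19 were tested, Blm and Apex1 among them.

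**Figure D1:**
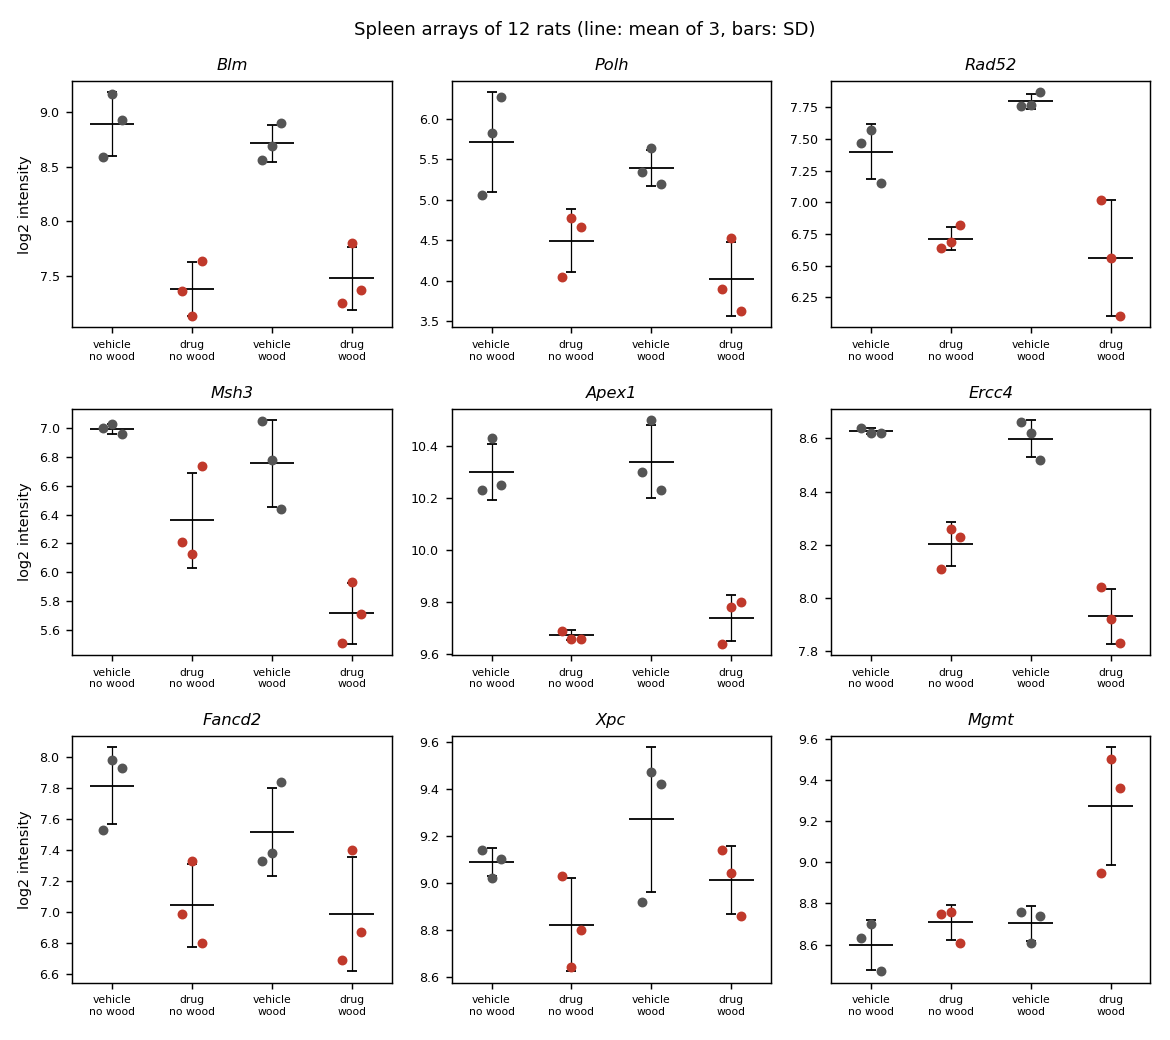
Log2 intensity (vertical axis) of 9 repair genes on the 12 spleen arrays by group; points are rats, lines the mean of 3 and bars the SD. Treated spleens lie wholly below vehicle spleens for Blm, Polh, Rad52, Apex1 and Ercc4, overlap them for Msh3, Fancd2 and Xpc, and lie highest for Mgmt in the 3 treated rats with wood.

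Markers of several cell types moved with these changes. All 11 division genes tested in spleen fell, with a median change of -1.40, and their summed intensity was 4364 to 8789 in vehicle rats and 1509 to 3170 in treated rats. The 4 B cell markers measured fell by a median of 4.67, with sums of 9901 to 12851 against 207 to 618, and all 5 erythroid markers tested fell. Macrophage markers rose in 6 of 6 (sums of 11949 to 15198 against 23482 to 27003) and stromal markers in 5 of 6. Of the 6 T cell markers 1 rose, 1 fell and 4 were not called, with a median change of -0.24. Their sums were 5960 to 7548 in vehicle rats and 4616 to 7267 in treated rats. None of the measured division and B cell markers was blank on any spleen array. The part of these shifts in the changes of the repair genes was not tested, and in whole-organ RNA fewer cells of a type and less RNA per cell cannot be told apart.

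Of the 12 genes listed as p53 targets, 9 rose and 1, Sesn1, fell. Cdkn1a, the cell cycle inhibitor, was in vehicle rats 6.84, 6.6 and 6.39 with wood and 3.77 in the 1 array with a value without wood, and in treated rats 8.61, 9.07 and 8.8 with wood and 8.57, 8.73 and 8.47 without. It rose by 2.22 ± 0.16 with wood (adjusted p = 3.95e-05) and by 4.81 ± 0.22 without, where the lone vehicle array was assumed to vary like the others. The difference between housings was called, at -2.60 ± 0.27 (adjusted p = 0.00573), and was at -1.17 (adjusted p = 0.1) with all probe sets averaged. Averaged over both housings, Ccng1 rose by 0.96 ± 0.06, while Mdm2, the ligase that degrades p53, was at 0.10 ± 0.06 (adjusted p = 0.2). Ddb2 and Xpc are repair genes known as p53 targets in human cells, and neither was called with the probe set used. Ddb2, which binds ultraviolet and other bulky lesions, had levels in vehicle rats 6.81, 6.57 and 6.99 without wood and 7.49, 7.54 and 7.3 with wood, and in treated rats 7.42, 7.42 and 6.84 without and 7.4, 7.6 and 7.59 with wood. The vehicle rats without wood and treated rat 2005 were the lowest, and the change was 0.26 ± 0.12 (adjusted p = 0.0904).

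The dimmer of the 2 probe sets of Ddb2 gave another answer. Its levels were 6.65, 6.87 and 6.04 in vehicle rats without wood and 6.33, 6.25 and 6.22 with wood, and 7.77, 7.69 and 7.75 in treated rats without wood and 8.18, 7.67 and 7.47 with wood. All treated spleens were above all vehicle spleens, and the rise was 1.36 ± 0.15 (adjusted p = 5.83e-05 by limma over 19655 probe sets), against 0.26 ± 0.12 (adjusted p = 0.0974 in that fit) for the brighter probe set, the one used. The change of the dimmer probe set was 1.21 without wood and 1.5 with wood. Which transcripts each probe set detects was not examined here. In liver the dimmer gave -0.21 and the brighter -0.04.

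Disagreement of sign occurred in other members with a called fall. The dimmer probe set of Rev1 gave 0.22 ± 0.15 against -0.44, that of Ercc4 0.15 ± 0.17 against -0.55 and that of Lig3 0.17 ± 0.21 against -0.24, none of the dimmer ones called. Both probe sets of Apex1 fell, by 0.61 and 0.56, as did all 3 of Ddb1, by 0.32, 0.38 and 0.64. In rats with wood, whose spleen arrays share a blank class, limma called none of the 3 Ddb1 probe sets. Their changes were -0.22, -0.24 and -0.20 (adjusted p = 0.0968, 0.108 and 0.579). The one that fell by 0.64 was at -1.07 without wood. Its levels there were 8.28, 8.37 and 8.18 in vehicle rats and 7.09, 6.67 and 7.84 in treated rats. The spleens with many blanks were its highest, and the part of the blanks in its fall was not tested.

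**Figure D2:**
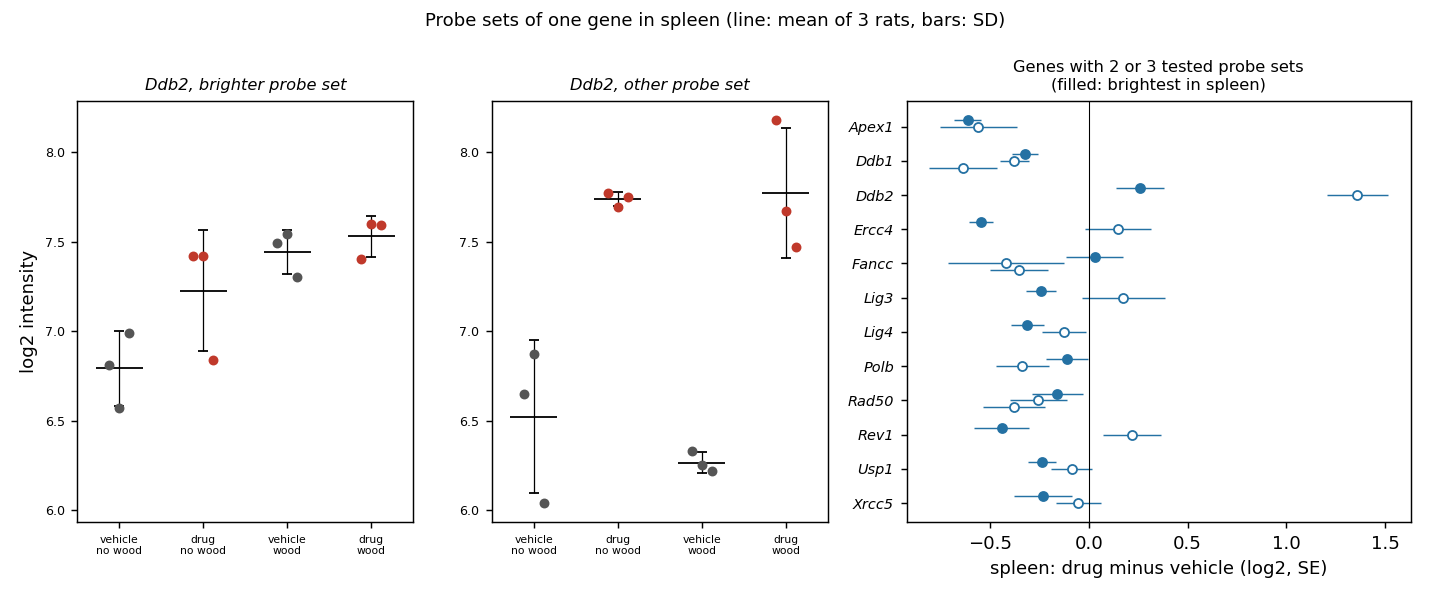
Left and middle, log2 intensity of the 2 Ddb2 probe sets on the spleen arrays by group, with the mean of 3 rats and SD; right, log2 change of treated minus vehicle spleens with SE for each probe set of members with several tested, filled for the brightest in spleen. For Fancc the filled probe set is not the one used in the text. The treated rats lie above all vehicle rats for the second Ddb2 probe set alone of the pair, with a change of 1.36 against 0.26.

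Promoter letters of members were read because many members moved the same way. RefSeq sequences of build GRCr8 held 1 promoter for 40 of the 51 members, and the 250 bases before the start were searched on both strands for the CCAAT box (CCAAT), the CHR element of cell cycle genes (TTTGAA) and E2F sites (TTTCCCGC, TTTGGCGC, TTTCGCGC or TTTGCCGC), of which none contains another. CCAAT stood in 9 of 22 promoters of members that fell (40.9%) and in 34.4% of all 24206 promoters. CHR stood in 0 of 22, against 16.1% of all promoters, and E2F letters in 1 of 22, against 3 of the 15 uncalled members and 1.83% of all promoters. Shown are 3 promoters of genes that fell, all on the + strand, with the matched letters in capitals: Apex1 with 3 CCAAT matches at chr15:26617976-26618225, Xrcc6 with 1 on the reverse strand at chr7:115422934-115423183, and Usp1 with the E2F match at chr5:118702806-118703055. A match is a description of letters and no test of binding.

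Apex1: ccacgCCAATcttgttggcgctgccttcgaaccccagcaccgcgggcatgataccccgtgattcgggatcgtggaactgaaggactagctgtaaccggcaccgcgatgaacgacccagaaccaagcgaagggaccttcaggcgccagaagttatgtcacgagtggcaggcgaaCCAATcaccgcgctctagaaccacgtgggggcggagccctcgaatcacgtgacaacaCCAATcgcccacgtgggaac
Xrcc6: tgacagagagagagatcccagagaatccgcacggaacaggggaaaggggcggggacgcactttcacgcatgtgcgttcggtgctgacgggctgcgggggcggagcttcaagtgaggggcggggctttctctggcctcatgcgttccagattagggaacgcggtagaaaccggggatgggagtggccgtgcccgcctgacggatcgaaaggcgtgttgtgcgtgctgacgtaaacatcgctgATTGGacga
Usp1: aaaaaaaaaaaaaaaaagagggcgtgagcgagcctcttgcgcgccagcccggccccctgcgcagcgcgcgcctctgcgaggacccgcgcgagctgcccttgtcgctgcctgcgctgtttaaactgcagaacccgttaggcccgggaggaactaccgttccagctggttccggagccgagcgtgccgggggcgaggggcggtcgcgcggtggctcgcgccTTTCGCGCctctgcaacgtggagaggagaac

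Housing split the counts but no difference between housings was called. Without wood 23 members fell and 1 rose, where 45.1% of all genes were called, 22.4% fell and 22.7% rose. With wood 17 fell and 2 rose, where 38.4% were called, 18.5% fell and 19.9% rose. With the division of arrays by blanks as a term, the change without wood compared treated rat 2005 alone with the vehicle rats, and fewer members were called. Of the 24 calls without wood, 6 held in every refit without 1 rat and under every alternative in which the gene was tested (Blm, Apex1, Pms2, Brca2, Palb2 and Rad54l). Calls for a fall occurred in both housings in 14 members, among them Blm, Polh, Rad52, Msh3, Apex1, Ercc4, Atr and Palb2, without wood alone in 9 and with wood alone in 3. The share of all genes that fell in both housings is not given here, so the 14 cannot be set against it. With wood, where all 6 arrays are in the same blank class, Polh fell by 1.37 ± 0.33, Blm by 1.24 ± 0.20, Rad52 by 1.24 ± 0.20 and Msh3 by 1.04 ± 0.19.

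The test of the difference between housings called 0 of 51 members by limma, where 0.705% of all genes were called. At an unadjusted p under 0.05 there were 6 members, a count for which the share of all genes is not given here. Fanca, a subunit of the core complex, came closest to a call. Its levels were in vehicle rats 5.95, 6.01 and 6.2 without wood and 3.96, 3.89 and 4.86 with wood, and in treated rats 5.23, 4.64 and 6.23 without and 5.79, 6.15 and 5.81 with wood. Vehicle rats with wood were at 4.86 or below, and of the other spleens only treated rat 2003 lay that low. The change was -0.69 ± 0.37 without wood and 1.68 ± 0.37 with wood (adjusted p = 0.00545), a difference of 2.37 ± 0.53 (adjusted p = 0.0984). Mus81, a nuclease that cuts stalled forks, rose by 1.45 ± 0.37 without wood (adjusted p = 0.0112) from vehicle arrays of which rat 1003 was blank, and was at -0.71 ± 0.33 with wood. Without rat 2005, 4 members were called for the difference, Fanca, Mus81, Ercc2 and Rev1. Without rat 1001 no member other than Mus81 was called. Mus81 then had 1 vehicle value without wood, that of rat 1005, and its difference of -2.91 rests on it.

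**Figure D3:**
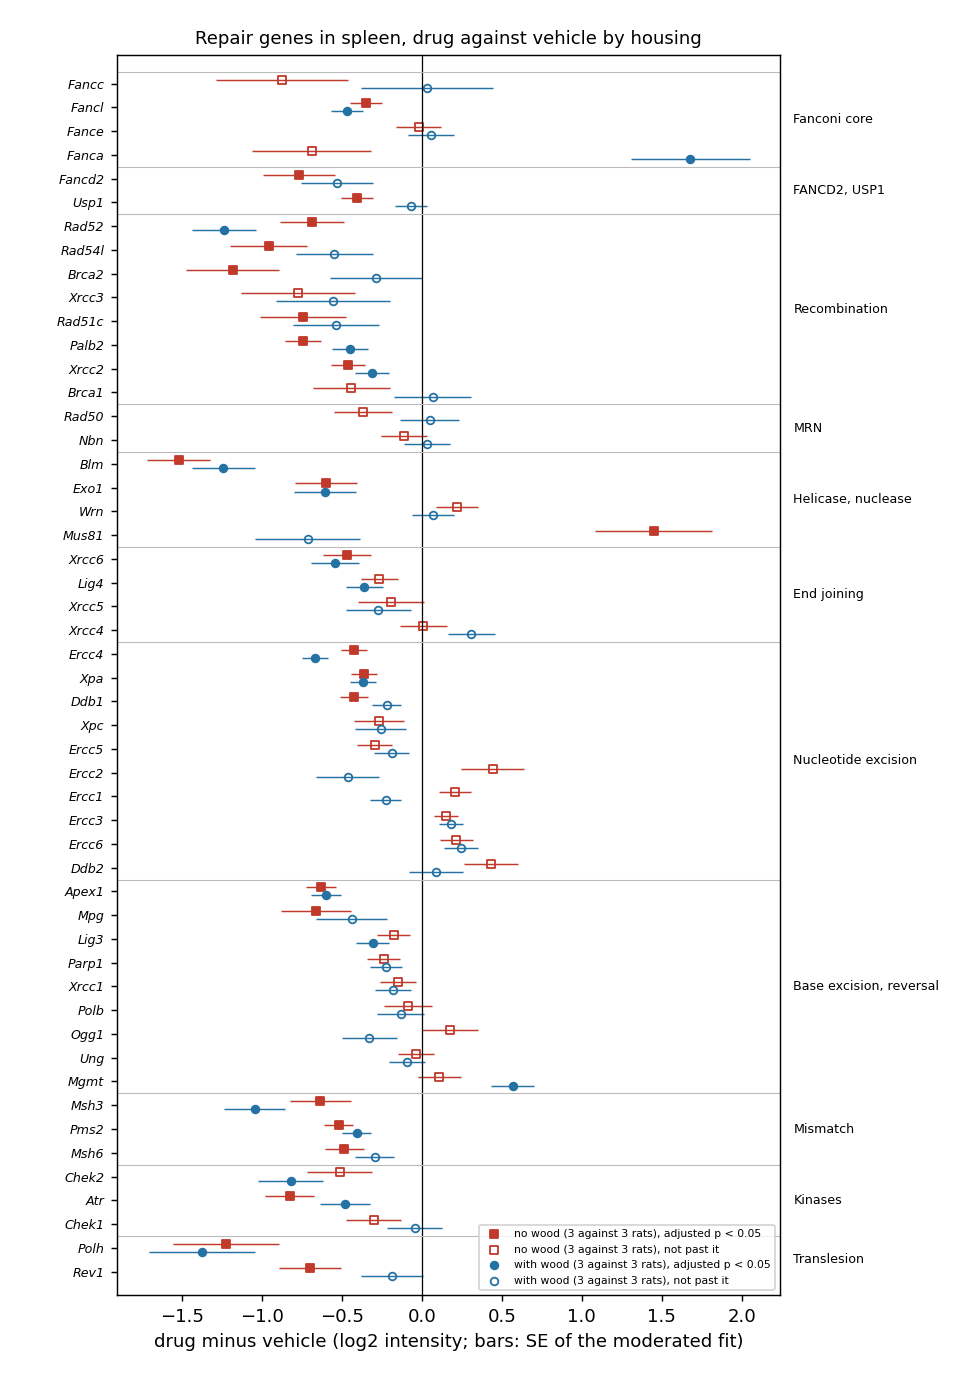
Log2 change of treated minus vehicle spleens (horizontal axis, bars SE) of the 51 repair genes by role, squares without wood and circles with wood, 3 against 3 rats, filled where the adjusted p was under 0.05. Most points lie left of 0, with Fanca at 1.68 with wood and Mus81 at 1.45 without wood the farthest to the right.

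Wood against no wood, averaged over both arms, called 7 members in spleen, 3 higher and 4 lower, where 12.1% of all genes were called, 6.05% higher and 6.05% lower. Atr had levels in vehicle rats 7.26, 7.2 and 7.3 without wood and 6.44, 6.63 and 6.59 with wood, and in treated rats 6.29, 6.25 and 6.75 without and 5.98, 6.36 and 5.88 with wood. It was lower with wood by 0.53 ± 0.11 (adjusted p = 0.0206), and was the sole member called in all 12 refits without 1 rat. Rad50, in vehicle rats 7.51, 8.2 and 8.07 without wood and 7.2, 7.29 and 7.23 with wood, and in treated rats 7.37, 7.41 and 7.89 without and 7.33, 7.25 and 7.28 with wood, was lower by 0.48 ± 0.13 (adjusted p = 0.0423), Palb2 by 0.29 ± 0.08 and Ercc3 by 0.21 ± 0.05. Palb2 levels were in vehicle rats 6.34, 6.43 and 6.32 without wood and 5.95, 6.01 and 5.82 with wood, and in treated rats 5.46, 5.51 and 5.89 without and 5.48, 5.44 and 5.51 with wood. Ddb2 was higher with wood by 0.48 ± 0.12, Mgmt by 0.33 ± 0.10 (adjusted p = 0.05) and Ercc1 by 0.26 ± 0.07. The dimmer probe set of Ddb2 had means of 6.52 in vehicle and 7.74 in treated rats without wood, and 6.27 and 7.77 with wood. With all probe sets averaged Ddb2, Rad50 and Mgmt were not called, and Ddb1, lower by 0.49 ± 0.09 (adjusted p = 0.0153), was. Mgmt has 1 probe set, so its own values were the same in that fit. All 3 vehicle rats without wood are arrays with many blanks, and with that division as a term 0 members were called. The term was set by treated rat 2005 against rats 2001 and 2003 alone, so that fit cannot tell blanks from differences between those rats. Leaving out 1 rat gave 1 to 11 calls, 11 without rat 2003 and at most 4 without 1001, 1003, 1005, 3001, 3003, 3005, 4001, 4003 or 4005.

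Beyond the members, 96 other repair genes were listed, of which 76 had a probe set. In spleen all 76 were tested, 34 fell (44.7%) and 4 rose (5.26%), with a median change of -0.26, where 28.1% of all genes fell and 26.9% rose. Largest among the falls were Rad51b, a recombination gene (-1.56 ± 0.28), and Ube2t, the conjugating enzyme of the Fanconi pathway (-1.43 ± 0.25). Largest among the rises were Faap24, a Fanconi core partner (1.06 ± 0.12), and Tdp1, which removes trapped topoisomerase (0.40 ± 0.13). Faap24 had a value on 9 of the 12 spleen arrays. Of 11 damage signalling genes 8 fell, with Mdc1, an adaptor that binds marked chromatin at breaks (-1.09 ± 0.11), and Clspn, the adaptor by which ATR reaches CHEK1 (-0.93 ± 0.29), farthest down. In liver limma called 0 of 68 tested, where 0.812% of all genes were called.

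In the liver none of the 48 members tested was called under cyclophosphamide by limma, in either housing or on average, where 0.812% of all 12683 genes were called, 0.166% higher and 0.647% lower. Without wood 0.15% of genes were called (0.0552% higher, 0.0946% lower) and with wood 0.0473%, all of them lower. At an unadjusted p under 0.05 there were 5 members, and the share of all genes at that cut is not given here. Fancc had the smallest adjusted p, 0.163, with levels in vehicle rats 7.36, 6.72 and 7.18 without wood and 7.3, 7.53 and 7.46 with wood, and in treated rats 6.23, 6.56 and 7.24 without and 6.34, 6.85 and 6.23 with wood. Its treated livers were mostly lower, and the change was -0.68 ± 0.19. The other Fancc probe set tested in liver gave 0.01 ± 0.29 (adjusted p = 0.993 by limma over 17991 probe sets). Nbn was measured in vehicle rats 9.35, 9.62 and 9.64 without wood and 9.61, 9.52 and 9.5 with wood, and in treated rats 9.23, 8.93 and 8.7 without and 9.01, 9.4 and 9.57 with wood, a change of -0.40 ± 0.12 (adjusted p = 0.191). Ercc5 was measured in vehicle rats 6.99, 7.0 and 7.06 without wood and 6.94, 7.01 and 6.88 with wood, and in treated rats 6.86, 7.27 and 7.15 without and 7.38, 7.37 and 7.38 with wood, where the 3 treated rats with wood were above every other liver, and the change was 0.25 ± 0.08 (adjusted p = 0.191).

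The median change of the members in liver was -0.06, against -0.02 over all genes. Their 95% intervals lay within 0.5 log2 units of 0 in 20 of 48 members and within 1 in 36. Among the 40 members with 12 liver values, none was separate in either direction, where 1.82% of all genes were lower and 1.06% higher. Blm, with 3 treated values, changed by -2.07 ± 0.77 (adjusted p = 0.321). Ercc1 was at 1.01 ± 0.99, with treated rat 2003 at 7.38 and the other liver arrays with a value at 5.56 or below, Fancd2 at -0.58 ± 1.03 and Mgmt at -0.07 ± 0.18. Ddb2 was at -0.04 ± 0.14, Xpc at -0.07 ± 0.09, Brca1 at -0.02 ± 0.27, Chek1 at 0.25 ± 0.23 and Xrcc5 at 0.08 ± 0.37. Brca2, Rad54l and Mus81 had 1 liver value each, all on the array of rat 2003, and were not tested. Of the 12 p53 targets none was called in liver, Ccng1 being at 0.75 ± 0.16 (adjusted p = 0.0736). Wood and the interaction called 0 members in liver and 0% of all genes. Each had 2 members at an unadjusted p under 0.05, again without a share of all genes to compare.

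Whether the drug acted differently in the organs was tested by the difference of its effects, liver minus spleen. It called 8 of 48 members, all of them members that fell in spleen and all with the higher change in liver (33.1% of all genes called, 14.7% in this direction and 18.4% in the other). Msh3 had liver levels in vehicle rats 6.69, 6.16 and 6.5 without wood and 6.32, 6.32 and 7.09 with wood, and in treated rats 6.79, 6.65 and 7.27 without and 6.97, 7.82 and 6.94 with wood, where the treated rats were mostly higher, and the difference was 1.40 ± 0.26 (adjusted p = 0.000464). Rev1 differed by 0.66 ± 0.24, Mpg by 0.59 ± 0.19, Ercc5 by 0.49 ± 0.11 (adjusted p = 0.00163), Apex1 by 0.49 ± 0.11 (adjusted p = 0.00156), Pms2 by 0.40 ± 0.15, Ddb1 by 0.34 ± 0.10 and Lig3 by 0.27 ± 0.10. In liver, Apex1 was in vehicle rats 8.5, 8.32 and 8.56 without wood and 8.56, 8.43 and 8.49 with wood, and in treated rats 8.4, 8.36 and 8.32 without and 8.15, 8.31 and 8.58 with wood, and Mpg in vehicle rats 7.15, 7.16 and 7.29 without wood and 7.06, 6.91 and 7.03 with wood, and in treated rats 7.19, 6.99 and 7.19 without and 6.85, 7.45 and 7.2 with wood. Rev1 in liver was in vehicle rats 7.76, 7.65 and 7.44 without wood and 7.25, 8.28 and 7.56 with wood, and in treated rats 7.69, 7.85 and 7.95 without and 7.58, 8.39 and 7.8 with wood. These groups overlapped in liver.

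Msh3, Ercc5 and Apex1 were called in all 12 refits without 1 rat, and the number of calls ranged from 4, without rat 1003 or 4005, over 5, without 1005, 3003, 3005 or 4003, to 12 without rat 2003. Ddb1 lost its call without rat 1003. Mpg, Lig3, Pms2 and Rev1 lost theirs in 7 to 10 refits. With all probe sets averaged, Apex1, Lig3, Pms2 and Rev1 lost their calls and Ddb2 gained one in the other direction, at -0.94 ± 0.14 (adjusted p = 9.67e-05). Pms2 has 1 probe set, so its own values were the same in that fit. Quantile normalisation and median centring ended the calls of Lig3 and Pms2. With the animal as a replicate block, Mpg, Pms2 and Rev1 lost their calls and Mgmt gained one, at -0.41 (adjusted p = 0.0435). The falls of Blm, Polh and Rad52 in spleen were not called as different from liver, where their errors were 0.77, 0.42 and 0.22. Polh was called under quantile normalisation, at 1.18 (adjusted p = 0.0467), and without rat 1001, 1003 or 4003. Rad52 was called with the offset and blanks at 0, at 0.60 (adjusted p = 0.0407), and without rat 2003 or 4001.

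**Figure D4:**
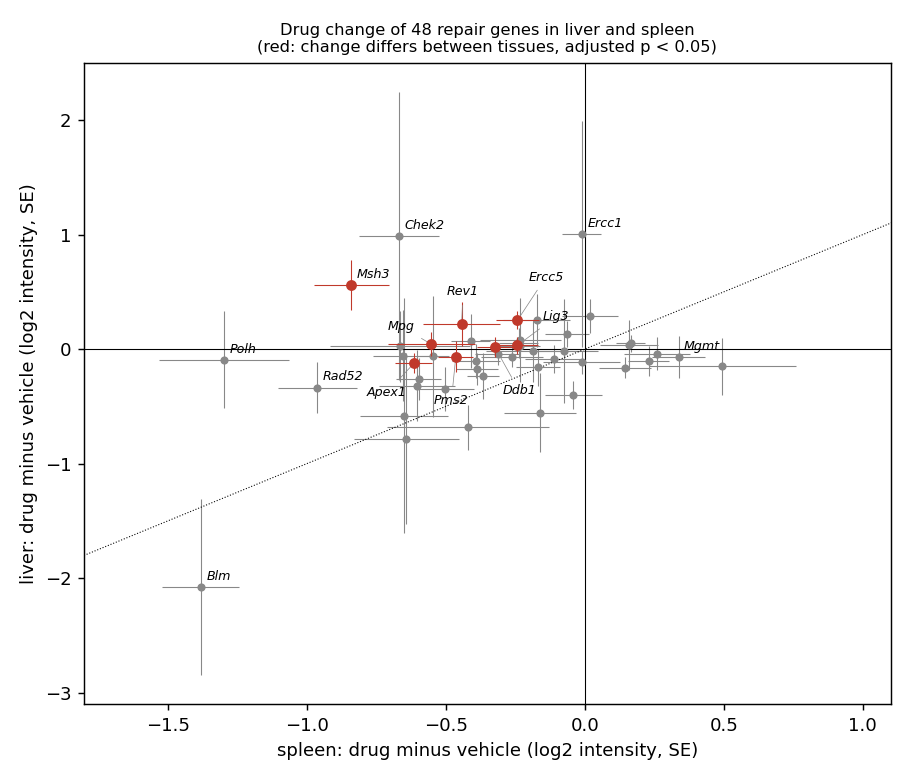
Log2 change of treated minus vehicle rats in spleen (horizontal) and liver (vertical) for the 48 members tested in both, with SE bars and a dotted line of equal change; red points differ between organs at an adjusted p under 0.05. Msh3, at -0.84 in spleen and 0.56 in liver, lies farthest from the line among the red points, and Blm and Chek2 carry wide liver bars.

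In vehicle rats most repair genes were lower in liver than in spleen, 39 of 48, with 5 higher, where 59.2% of all genes were lower and 20.2% higher (79.5% called). The median difference was -1.23 over the members and -0.72 over all genes. Centring each array on its median moved the all-gene median to -0.13 and quantile normalisation to -0.29, and the counts became 29 lower and 8 higher, and 30 and 8. The counts therefore depend on the scaling, and the cause of the all-gene median was not tested. Shares of all genes called after these scalings are not given here, so the member counts cannot be set against them.

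Blm had the lowest liver level relative to spleen, at 4.39 and 4.74 in the 2 arrays with a value without wood and 4.28, 2.34 and 4.64 with wood, against the spleen levels given above, a difference of -4.65 ± 0.41 (adjusted p = 6.01e-08). Ercc1 in liver was 3.83 and 5.14 in the 2 arrays with a value without wood and 4.48 and 1.64 in the 2 arrays with a value with wood, a difference of -4.22 ± 0.69 (adjusted p = 2.75e-05). Fancd2 differed by -3.82 ± 0.59 and Chek2 by -3.60 ± 0.88, both with blanks in liver. These liver levels were low and scattered, and dim values there are partly missing.

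Higher in liver were Fancc (0.81 ± 0.26), Nbn (0.65 ± 0.11), Ung, the glycosylase that removes uracil from DNA (0.64 ± 0.10), Fanca (0.62 ± 0.27) and Ercc2, the second TFIIH helicase (0.35 ± 0.12). Fanca in vehicle livers was 5.98, 5.96 and 5.62 without wood and 5.16, 5.92 and 5.91 with wood, against the spleen levels given above. For Fancc the vehicle spleens were 6.23, 7.38 and 7.37 without wood and 5.81, 5.94 and 5.95 with wood, against the liver levels given above. In both genes the organs overlapped without wood and were apart with wood. For Ung the vehicle livers were 9.38, 9.51 and 9.39 without wood and 9.58, 9.51 and 9.73 with wood, against spleens of 8.8, 8.88 and 8.84 and 8.85, 8.88 and 9.04. Each liver was above each spleen. Nbn livers were 9.35, 9.62 and 9.64, and 9.61, 9.52 and 9.5 with wood, against spleens of 8.88, 9.11 and 8.84, and 8.68, 8.73 and 9.12. Vehicle levels of Chek2 in liver were -0.88, 3.51 and 5.31 without wood and 5.39 in the 1 array with a value with wood, against 7.18, 7.42 and 7.55, and 7.67, 8.02 and 7.85, in spleen. Fancc was lower in liver, at -0.21, when all its probe sets were averaged.

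**Figure D5:**
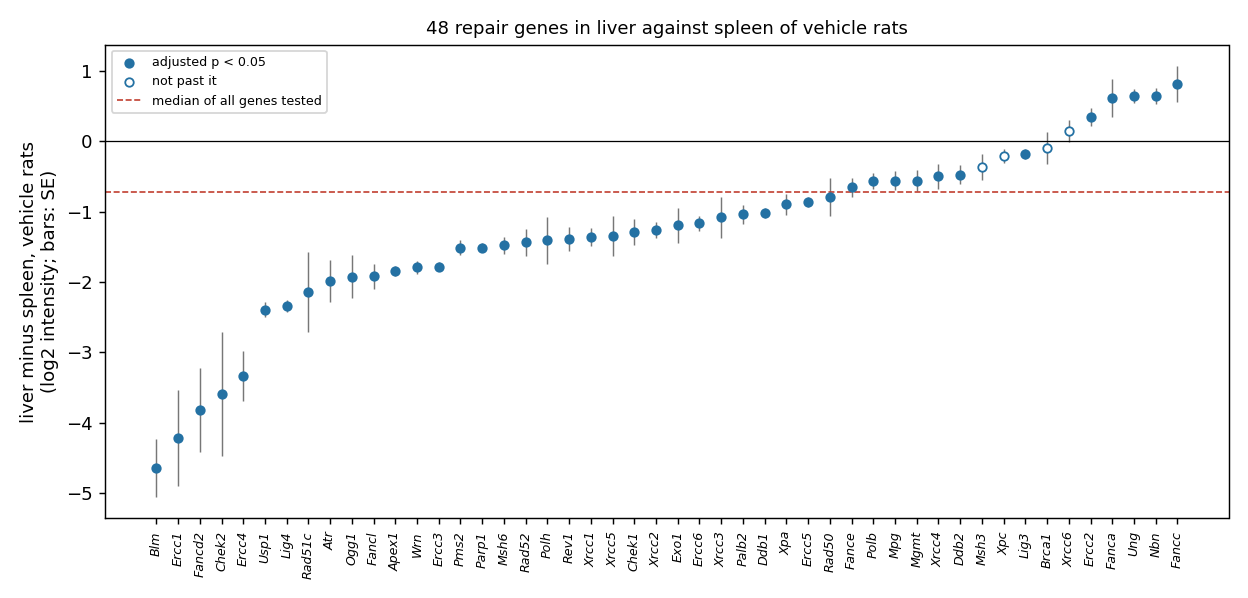
Log2 difference of liver minus spleen in vehicle rats (vertical axis, bars SE) for 48 repair genes in rising order, filled where the adjusted p was under 0.05, with a dashed line at the median of all genes tested, -0.72. Blm, at -4.65, is lowest and Fancc, at 0.81, highest.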

How the data were processed

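The table deposited by the authors holds 24 arrays as log10 intensities. The base was inferred: as log10 the values span 2143-fold between the percentiles 1 and 99, and as log2 10.1-fold. Summarisation and scaling of the probes were not given in the sources used here. After conversion to log2, blank cells (10.5%, 77831 of 743520) stayed missing. Of 30980 probe sets, 20792 name 1 gene. A gene was represented by its brightest probe set, ranked by log2(intensity + 16) over all arrays, and was tested with at least 1 value in every group.

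Group means were fitted with limma 3.58.1 in R 4.3.3 (lmFit, contrasts, eBayes; tested on simulated data), over 12 arrays per tissue, or over 24 for comparisons of tissues, with Benjamini-Hochberg adjustment over all genes. Each rat is a separate animal. Liver and spleen of a rat are paired by the labels. Over 10530 genes their deviations from group means correlated at -0.058 to 0.170, and best with their own animal in 11 of 12. The number of arrays limits the precision.

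Members and lists were chosen with earlier results of these data known. Values are given for up to 6 rises and 6 falls by size per tissue, members called for wood, up to 5 by size for the difference of tissues and 4 per direction for liver against spleen, 8 fixed genes (Ddb2, Xpc, Fancd2, Brca1, Chek1, Ercc1, Mgmt, Xrcc5), and the 3 smallest p in liver. Apex1 and the other genes drawn from spleen arrays, Fanca, Mus81 and members that gained calls in refits were added after their values were seen. Alternatives were 2 scalings, an offset with blanks at 0, at least 2 values per group, brighter genes alone, the mean of probe sets, a trended robust prior, leaving out each rat, a term for spleen arrays with over 1500 blanks and a replicate block for the animal. Refitting only the 8 spleen arrays of the class with few blanks was added after seeing the data.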

Additional observations from a re-analysis of the deposited data

Results flagged for a closer look

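For 8 members the drug's effect differed between organs by the test of the difference itself, liver minus spleen, by limma with Benjamini-Hochberg adjustment. The difference was 1.40 for Msh3, 0.66 for Rev1, 0.59 for Mpg, 0.49 for Apex1, 0.49 for Ercc5, 0.40 for Pms2, 0.34 for Ddb1 and 0.27 for Lig3, all as log2 changes. Each of the 8 fell in spleen and none was called in liver. Among all genes, 33.1% were called in this comparison, 14.7% with the higher change in liver and 18.4% with the lower. The 8 of 48 members are thus a smaller share than that of all genes called. In this direction they are close to the share of all genes.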

How the results depend on the processing

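Spleen calls under the drug numbered 29 to 34 over the refits without 1 rat, against 32, and 17 when only genes at or above the median level were kept, where 23 members were tested. Under that filter the count was 12 without wood, 18 for liver against spleen and 5 for the difference of organs, since fewer genes were tested. With a term for the spleen arrays with many blanks it was 10 without wood, 0 for wood and 1, Ercc2, for the interaction. With wood, the fit to the 8 arrays with few blanks called 21. Averaging all probe sets gave 5 for the difference of organs, Ddb1, Ercc5, Mpg and Msh3 of the 8, and Ddb2 at -0.94. Leaving out 1 rat gave 1 to 11 calls for wood in spleen, 0 to 4 for the interaction and 4 to 12 for the difference of organs.

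Signs turned in single genes. With the blank term Ercc2 in spleen was at 0.26. With all probe sets averaged, Ercc4 without wood was at 0.012, Rad50 with wood at -1.08, and Fancc and Lig3 in liver against spleen at -0.21 and 0.11. In that comparison median centring gave 0.092 for Xrcc4, 0.38 for Xpc, 0.12 for Ddb2, 0.032 for Mgmt, 0.030 for Mpg, 0.41 for Lig3 and 0.026 for Polb, and quantile normalisation 0.28 for Xpc, 0.048 for Mgmt, 0.0022 for Mpg and 0.43 for Lig3. Without 1 rat the difference of organs for Fancd2 lay between -0.83 (without rat 2003, adjusted p = 0.0384) and 1.03 (without rat 2001, adjusted p = 0.0228). The cause of these turns was not tested. With the animal as a replicate block, the paired fit called 6 members for the difference of organs, against 8, and 44 for liver against spleen, as without it. No member was called for the drug, wood or the interaction in liver under any alternative run.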
